A study of Mus musculus with 36 samples.

Results

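The 38 genes described here encode the nuclear receptor PPARα and the enzymes and transporters of hepatic fatty acid oxidation. They were found by their symbols among the 24421 genes counted in each of 36 mouse livers, and all 38 were present in every count table. The mice were male C57BL/6J, each gave 1 library, and all had been fed the CDAHFD, a choline-deficient, amino acid-defined high-fat diet that induces steatohepatitis with fibrosis, for 12 weeks. In the HFD experiment, they then ate a high-fat diet (HFD), lasting 2 weeks, with a subcutaneous injection once a week of Fc at 4.3 mg/kg (n = 10) or Fc(mML1)B3 at 5 mg/kg (n = 10). In the standard diet experiment, the diet given for the last 10 days was a standard one, with Fc at 4.3 mg/kg (n = 9) or Fc(mML1)B3 at 5 mg/kg (n = 7) on days 1, 4 and 7. Fc is an antibody fragment that served as the control protein in both experiments. Fc(mML1)B3 carries a macrocyclic peptide grafted into the Fc that binds and activates Met, the receptor of hepatocyte growth factor. Diet went together with experiment, injection schedule and library series, so none of these can be told apart in a comparison between the diets.

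PPARα is a nuclear receptor that is activated by fatty acids and acts as a heterodimer with RXR on DNA elements made of a pair of repeats of a short sequence with 1 base between them (DR1). In hepatocytes it switches on the genes that take up, activate and oxidise fatty acids, above all in fasting. Long-chain fatty acids are activated to acyl-CoA, cross the inner mitochondrial membrane as carnitine esters and are shortened stepwise by β-oxidation, while very long chains are shortened in peroxisomes first and ω-oxidation in the endoplasmic reticulum takes up a further share.

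Total counts per library ranged from 14949035 to 28466853, with a median of 23558194.5, and the 38 genes together took 1.01% to 1.44% of them. The share was lowest with Fc under the standard diet (1.18% ± 0.10, SD, n = 9), followed by 1.19% ± 0.06 (SD, n = 7) with Fc(mML1)B3. For the HFD experiment it was 1.24% ± 0.10 (SD, n = 10) with Fc and 1.31% ± 0.09 (SD, n = 10) with Fc(mML1)B3. The unit of levels is CPM, reads per 1000000 reads of the library after TMM scaling over the 36 libraries. The weakest of the 38, Slc27a1, still rested on at least 130 reads per library. Fc(mML1)B3 mouse 5 of the HFD experiment, whose library was the smallest, stood apart as the lowest of its group for 34 of the 38 genes, and the calls of that experiment are also given without it. The hepatocyte marker Alb stood at 55796 to 120109 CPM in every liver, whereas 4 adipocyte markers summed to at most 0.662 CPM and 4 striated muscle markers to at most 0.273 CPM. Liver is a mixture, and fewer hepatocytes and less RNA per hepatocyte cannot be told apart in these values.

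Per length of transcript, expression was led by Acaa1b, a peroxisomal thiolase, at a mean of the 4 group medians of 1154 TPM (transcripts per 1000000), Slc27a2, a very long-chain fatty acid transporter and acyl-CoA synthetase, at 1066 TPM, and Acaa2, the mitochondrial thiolase, at 1060 TPM. Ppara itself stood at 65.2 TPM, place 32 of 38. The lowest were Slc22a5, the carnitine transporter of the cell membrane, at 12.8 TPM, Abcd2 at 12.8 TPM and Slc27a1 at 9.41 TPM. Between mice of a group, the median coefficient of variation of the 38 genes was 16.1% (Fc) and 16.0% (Fc(mML1)B3) in the HFD experiment and 8.64% and 7.31% under the standard diet. Cyp4a14, a microsomal ω-hydroxylase, was the most variable in all 4 groups, at 37.7% to 67.5%.

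Because these genes are classic targets of PPARα, the DR1 element was searched in their promoters. RefSeq gave 35 promoters of 300 bases, from 250 bases before to 50 after the start, for 30 of the 38 genes (build GRCm38.p6). The element searched was AGGTCA, any base, AGGTCA, on both strands. An exact copy was in 0 of the 35 and in 0.0396% of all 32851 promoters. With up to 2 mismatches in the 12 fixed bases, it was in 3 of the 35 promoters (8.57%), those of Slc25a20, Echs1 and Etfa, and in 3.86% of all promoters. The 3 stretches follow, 5′ to 3′ along the gene, with the matched bases in capitals. They are chr9:108662134-108662162 on the plus strand for Slc25a20, chr7:140116484-140116512 on the minus strand for Echs1 and chr9:55512300-55512328 on the minus strand for Etfa.
Slc25a20: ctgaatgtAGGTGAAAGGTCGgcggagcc
Echs1: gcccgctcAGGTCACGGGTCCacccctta
Etfa: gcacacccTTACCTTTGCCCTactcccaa
The Slc25a20 match lies just downstream of the start and the other two upstream of it, and that of Etfa reads on the opposite strand. A further motif, the E-box CACGTG bound by clock proteins, was in 2 of the 35 promoters (Aldh3a2 and Slc27a1) and in 7.15% of all. A match of letters is not a bound site, and binding was not measured.

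Under the HFD, a few of the 38 genes changed with Fc(mML1)B3. Of the 38 genes, 4 were called higher in the Fc(mML1)B3 group (Acsl1, Pex11a, Slc25a20 and Hsd17b4) and 1 lower (Abcd2) at an adjusted p below 0.05. Over all 13299 genes tested, 14.8% were called, 8.14% higher and 6.68% lower, so the share among the 38 genes was close to that of all genes. Of the 38 genes, 29 had a positive log2 fold change, with a median of 0.16 beside -0.01 over all genes tested. No gene of the 38 had groups without overlap, which 0.962% of all genes had, and none passed the study's own limits for this experiment, an adjusted p of 0.1 and a fold change of 2, which 1.34% passed. Adjusted p-values are from the quasi-likelihood test of edgeR, adjusted over all genes tested by the method of Benjamini and Hochberg, and SE is the standard error of a log2 fold change. The study's limits were applied to this test, whereas the study itself used DESeq2.

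Ppara, on chromosome 15 of mm10 from 85735564 to 85806851, had 199, 260 and 307 CPM as the lowest, median and highest of the Fc livers and 153, 228 and 276 CPM in the Fc(mML1)B3 livers under the HFD. The groups overlapped over most of their range, and 2 of the 10 Fc(mML1)B3 mice lay above the median of the Fc group. The log2 fold change of -0.17 (95% interval -0.37 to 0.03) did not pass the test (adjusted p = 0.234).

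Acsl1 (chromosome 8, 46471037 to 46536051), the acyl-CoA synthetase that commits long-chain fatty acids to metabolism, had the largest change. Fc livers ranged from 347 to 788 CPM (median 609) and Fc(mML1)B3 livers from 561 to 1501 CPM (median 1107). All but 1 of the Fc(mML1)B3 livers lay above the median of the Fc livers, and the lowest, mouse 5, lay within their range. The rise was 1.74-fold (log2 fold change 0.80, SE 0.14, adjusted p = 4.72e-04). The other acyl-CoA and carnitine entry genes had values of 0.17 for Slc27a2, -0.27 for Slc27a1, another fatty acid transport protein, and -0.05 for Slc22a5 on the log2 scale, and none of these passed.

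Slc25a20 (chromosome 9, 108662098 to 108684641), 1 of the 3 genes with a DR1-like stretch above, encodes the translocase that exchanges acylcarnitine for carnitine across the inner mitochondrial membrane. Its level was 109 to 150 CPM with a median of 134.1 in Fc livers and 118 to 217 CPM with a median of 184 in Fc(mML1)B3 livers. Of the 10 Fc(mML1)B3 mice, 9 exceeded the Fc median (log2 fold change 0.44, SE 0.09, adjusted p = 0.00244). The enzymes before and after this step did not pass edgeR's test on this experiment. Cpt1a, the rate-limiting transferase on the outer membrane, had a log2 fold change of -0.17 (95% interval -0.40 to 0.06), Cpt2 on the inner membrane one of 0.25 (adjusted p = 0.0525), and Crat, which makes acetylcarnitine, one of 0.22. Cpt2 was called by DESeq2 and in the fit on all 36 livers (adjusted p = 0.0126).

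The 11 genes of the mitochondrial β-oxidation cycle all had a positive value, from 0.11 to 0.26, and 0 passed edgeR's test on the 20 livers of the experiment. Acadm and Hadh were called by DESeq2, and these 2 with Acaa2 and Eci1 in the fit on all 36 livers (adjusted p = 0.0195 to 0.0394), which called 22.2% of all genes. At an unadjusted p below 0.05, 11 of the 38 genes passed in all, beside 3966 of all 13299 genes. Among the acyl-CoA dehydrogenases, Acadvl, Acadl, Acadm and Acads, for very long, long, medium and short chains, had log2 fold changes of 0.16, 0.13, 0.23 and 0.12. Hadha and Hadhb, the subunits of the trifunctional protein, had 0.17 and 0.13, and Echs1 and Hadh, the short-chain hydratase and dehydrogenase, 0.11 and 0.25. The thiolase Acaa2 had 0.25, and Eci1 and Decr1, which prepare unsaturated chains, had 0.26 and 0.13. Etfa, Etfb and Etfdh, which pass the electrons to the respiratory chain, had 0.16, 0.21 and 0.17. A comparison list of 43 respiratory chain genes also had 43 positive values under the HFD, with a median of 0.15 and 1 called, so small positive values were also found outside β-oxidation.

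Among the peroxisomal genes, Pex11a, which takes part in peroxisome division, had 14.1 to 39.6 CPM with a median of 27.6 in Fc livers and 23.6 to 53.0 CPM with a median of 37.9 in Fc(mML1)B3 livers. The ranges overlapped, with 9 of 10 Fc(mML1)B3 livers above the Fc median (log2 fold change 0.48, SE 0.14, adjusted p = 0.0245). Without Fc(mML1)B3 mouse 6, the adjusted p was 0.0529. Hsd17b4, a bifunctional enzyme of peroxisomal β-oxidation, had 299 to 490 CPM with a median of 423 against 368 to 625 CPM with a median of 528. Here too 9 of 10 mice were above the Fc median, at a log2 fold change of 0.33 (SE 0.09, adjusted p = 0.0163).

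Abcd2 (chromosome 15, 91145871 to 91191807), a transporter of very long-chain acyl-CoA into peroxisomes, went the other way. Fc livers had 20.5 to 56.4 CPM with a median of 41.3 and Fc(mML1)B3 livers 10.3 to 32.1 CPM with a median of 25.8. None of the 10 Fc(mML1)B3 mice reached the Fc median, although the ranges overlapped (log2 fold change -0.64, SE 0.18, adjusted p = 0.0224). The related transporter Abcd3 had a log2 fold change of 0.18 and did not pass. Nor did Ehhadh (0.05), the PPARα-inducible bifunctional enzyme, the thiolases Acaa1a (0.20) and Acaa1b (0.29), the isomerase Eci2 (0.23), the reductase Decr2 (0.09) or Crot (0.08), which converts medium-chain acyl-CoA to carnitine esters for export from peroxisomes. Because only uniquely aligned reads were counted, Acaa1a and Acaa1b, which are close paralogs, and the Cyp4a genes are less certain than the rest.

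The ω-hydroxylases Cyp4a10 and Cyp4a14, among the genes most inducible through PPARα, had log2 fold changes of -0.31 (SE 0.27) and -0.63 (SE 0.31), neither past the test. Their Fc livers spread from 126 to 617 CPM and from 57.7 to 513 CPM. Aldh3a2, a fatty aldehyde dehydrogenase, had 0.04, Bdh1, an enzyme of ketone body synthesis, -0.14, and Vnn1, a pantetheinase, -0.19.

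**Figure D1:**
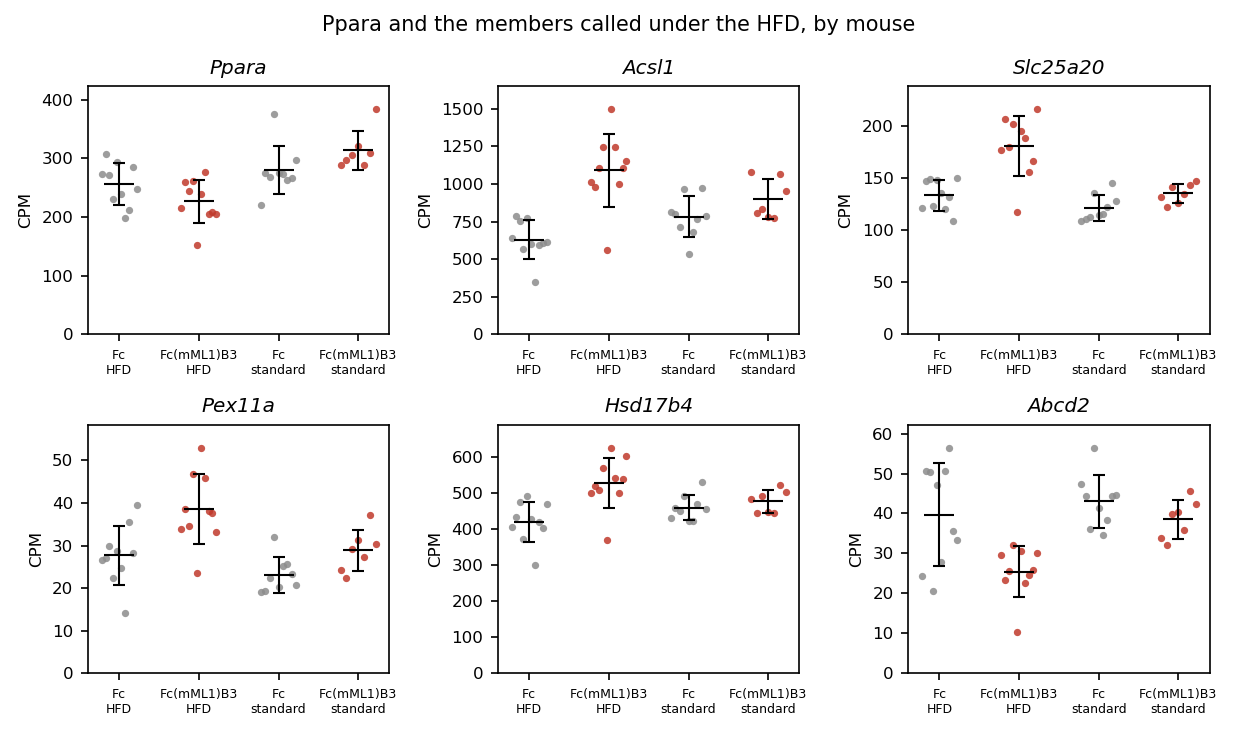
CPM (y axis, from 0) of Ppara and the 5 genes called under the HFD in each of the 36 livers, by group (x axis), with the mean and SD of the group as bar and whiskers. Acsl1, Slc25a20, Pex11a and Hsd17b4 were higher and Abcd2 lower with Fc(mML1)B3 in the HFD experiment, each with overlap between the groups, and Ppara was lowest in Fc(mML1)B3 livers under the HFD.

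All Fc libraries of the HFD experiment were of 1 library series and the Fc(mML1)B3 libraries of 2 others, so series and protein cannot be told apart there. Against all Fc livers, the 4 Fc(mML1)B3 livers of 1 series (mice 1 to 4) had an Acsl1 log2 fold change of 0.80 (adjusted p = 0.00722) and the 6 of the other (mice 5 to 10) also 0.80 (adjusted p = 0.00479). Slc25a20 had 0.52 (adjusted p = 0.00630) and 0.38 (adjusted p = 0.0285). Pex11a had 0.48 in both, Hsd17b4 0.33 and 0.34, and Abcd2 -0.51 and -0.72, with adjusted p-values of 0.0514 to 0.166, so their calls were lost. Over the full set of genes described here, the small rise was uneven, with a median of 0.24 for mice 1 to 4 and 0.09 for mice 5 to 10. Positive values were seen for 30 and 28 of the set, and 18 and 9 had an unadjusted p below 0.05 in edgeR's test. The smaller median includes mouse 5, and without that mouse the median over both series was 0.20. Without Fc(mML1)B3 mouse 5, the lowest of its group for all 5 called genes, 10 genes were called higher and 1 lower, beside 21.3% of all genes. Acsl1 then had 0.87, Pex11a 0.54, Slc25a20 0.49, Hsd17b4 0.38 and Abcd2 -0.55 (adjusted p = 3.07e-05 to 0.0191).

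Clock genes differed strongly between the same groups. Under the HFD, 13 of 14 clock genes tested were called, with Arntl higher by 3.98 and Dbp lower, at -3.31 on the log2 scale. A clock score (mean log2 CPM of 5 genes of the Arntl phase minus that of 7 of the Dbp phase) ran from -5.09 to -3.74 in Fc and from -2.57 to 0.302 in Fc(mML1)B3 livers, with no overlap. With this score as a covariate, edgeR called 0 of the 38 genes and 0 of 13299 genes, and 2 and 903 passed an unadjusted p below 0.05. In that fit, Acsl1 had 0.47 and Slc25a20 0.31, Hsd17b4 was near 0 at 0.04 and Pex11a at 0.06, and Abcd2 had -0.94 (adjusted p = 0.716 to 0.974). Since score and group did not overlap, their parts cannot be told apart. Markers of other cells moved as well. S100a8 and S100a9, 2 of 3 neutrophil markers tested, were called lower under the HFD, and the 4 neutrophil markers measured summed to 5.06 to 57.1 CPM in Fc and 4.94 to 11.2 CPM in Fc(mML1)B3 livers. Of 5 lymphocyte markers, Ms4a1 was called lower, with sums of 6.92 to 17.2 and 4.85 to 13.2 CPM. Of 8 hepatocyte markers, 1 was called higher (Hnf4a, 0.37), beside 14.8% of all genes called. Positive log2 fold changes were seen for 7 of these 8 markers, with a median of 0.21 beside the 0.16 of the 38 genes. Their sums were 77707 to 139506 CPM (median 102550) and 71676 to 148592 CPM (median 120882). The part of these cells in the values of the 38 genes was not tested.

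Under the standard diet, the largest change was a fall of Crot. Of the 38 genes, 5 were called higher in the Fc(mML1)B3 group (Cpt1a, Abcd3, Acaa1a, Acaa2 and Decr2) and 1 lower (Crot). Among all 13570 genes tested, 16.1% were called, 8.56% higher and 7.55% lower, so again the share was close to that of all genes. Positive values were seen for 27 of the 38 genes, with a median of 0.08 beside -0.01 over all genes.

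Crot lies on chromosome 5 of mm10 from 8966048 to 8997146. Under the standard diet it had 668, 754 and 827 CPM as the lowest, median and highest Fc liver and 363, 425 and 555 CPM in the Fc(mML1)B3 livers. Every Fc(mML1)B3 liver was below every Fc liver, a separation seen for 2.90% of all genes tested. The level fell to 0.578-fold (log2 fold change -0.79, SE 0.08, adjusted p = 2.43e-06). With the 4 Fc livers of the same library series as the Fc(mML1)B3 livers, it was -0.75 (adjusted p = 9.39e-04), and with the clock score as a covariate -0.85 (adjusted p = 5.75e-05). The call held in all 8 alternatives and in each of the 16 fits without 1 mouse (-0.86 to -0.75). It was also the 1 gene of the 38 with an adjusted p under 0.05 and a change of over 1.5-fold. A figure legend of the study names these limits for this experiment, and 2.36% of all genes passed them in the edgeR test. The text of the study names an adjusted p under 0.1 and a change of over 2-fold instead, and the change of Crot was smaller than that.

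The 5 genes called higher rose 1.11- to 1.20-fold. Cpt1a (chromosome 19, 3323301 to 3385733) had 373 to 469 CPM with a median of 418 in Fc livers and 410 to 585 CPM with a median of 492 in Fc(mML1)B3 livers. Of the 7 Fc(mML1)B3 mice, 6 were above the Fc median (log2 fold change 0.26, SE 0.06, adjusted p = 0.00582). Abcd3, which imports long-chain and branched acyl-CoA into peroxisomes, had 403 to 559 CPM with a median of 461 against 518 to 622 CPM with a median of 559. All 7 were above the Fc median, within overlapping ranges (log2 fold change 0.25, SE 0.07, adjusted p = 0.0129).

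The thiolases of both organelles were called with smaller changes. Peroxisomal Acaa1a ran from 145 to 181 CPM (median 167) in Fc livers and from 171 to 207 CPM (median 186) in Fc(mML1)B3 livers (log2 fold change 0.17, SE 0.05, adjusted p = 0.0316). Mitochondrial Acaa2 ran from 709 to 929 CPM with a median of 809 and from 838 to 964 CPM with a median of 906 (0.16, SE 0.05, adjusted p = 0.0287). For both, all 7 Fc(mML1)B3 mice lay above the Fc median while the ranges overlapped. Decr2, the peroxisomal dienoyl-CoA reductase, had 0.15 (SE 0.05, adjusted p = 0.0446). Within the 1 library series that holds both proteins (4 Fc and 7 Fc(mML1)B3 livers), none of these 5 genes was called, beside 6.86% of all genes. Cpt1a then had 0.25 (adjusted p = 0.0583), Abcd3 0.21, Acaa1a 0.16, Decr2 0.16 and Acaa2 0.10. In the fit on all 36 livers, none of the 5 was called either (adjusted p = 0.138 to 0.412), beside 5.57% of all genes. Leaving out 1 mouse gave 2 higher calls without Fc mouse 1 or 9 or Fc(mML1)B3 mouse 6 or 7, and 3 without Fc mouse 3 or 6, beside 12.7% to 14.4% of all genes. Without Fc mouse 4 or 8, 7 were called higher, beside 15.2% and 16.5%. In such fits, lower calls rose to 2 without Fc mouse 7 or Fc(mML1)B3 mouse 3. Over all the fits without 1 mouse, 12.7% to 16.5% of all genes were called.

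**Figure D2:**
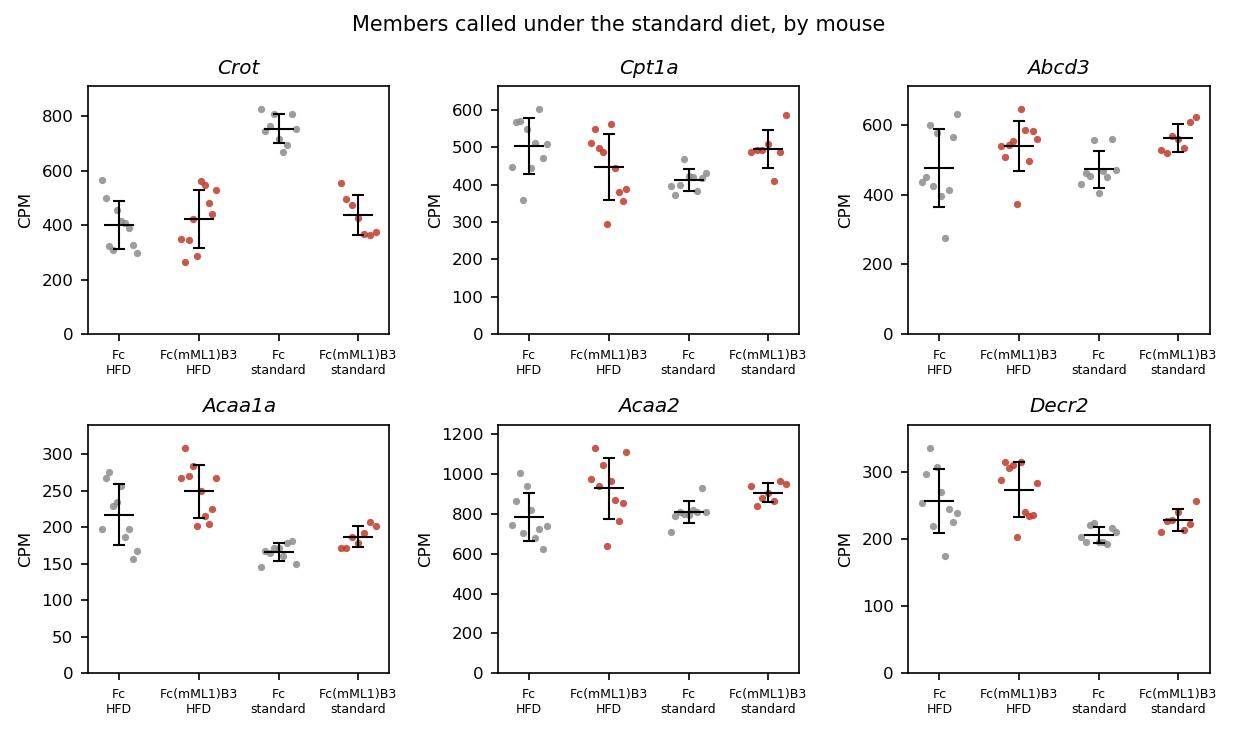
CPM (y axis, from 0) of the 6 genes called under the standard diet in each of the 36 livers, by group (x axis), with the mean and SD of the group as bar and whiskers. Crot was at 668 to 827 CPM in Fc livers under the standard diet and at or below 565 CPM in every other liver, whereas for the other 5 genes the Fc and Fc(mML1)B3 groups of each diet overlapped.

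Ppara had 221, 274 and 375 CPM in Fc and 288, 306 and 385 CPM in Fc(mML1)B3 livers as the lowest, median and highest. All 7 Fc(mML1)B3 livers were above the Fc median, but the change of 0.17 (95% interval -0.01 to 0.34) did not pass (adjusted p = 0.185). Leaving out 1 mouse at a time gave 0.11 to 0.23, with 1 call in 16 fits, the one without Fc mouse 4 (0.23, adjusted p = 0.0211), and adjusted p-values of up to 0.389 in the others. Both groups held 1 high liver, Fc mouse 4 at 375 CPM and Fc(mML1)B3 mouse 7 at 385 CPM.

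None of the other genes passed with edgeR under the standard diet. DESeq2 also called Decr1, Etfb and Pex11a, and the replicate block Decr1 and Pex11a. With the block, Acaa1a, Acaa2 and Decr2 lost their calls (adjusted p = 0.0512 to 0.0946). The entry genes had log2 fold changes of 0.20 (Acsl1), 0.08 (Slc27a2), -0.28 (Slc27a1) and 0.09 (Slc22a5), and the other carnitine genes 0.16 (Slc25a20), -0.01 (Cpt2) and 0.00 (Crat). The remaining genes of mitochondrial β-oxidation ranged from 0.00 for Acadm to 0.14 for Decr1. Between these lay Acadvl (0.10), Acadl (0.07), Acads (0.07), Hadha (0.01), Hadhb (0.05), Echs1 (0.12), Hadh (0.13) and Eci1 (0.10). Electron transfer genes had 0.03 (Etfa), 0.14 (Etfb) and -0.10 (Etfdh). Among the peroxisomal genes, Pex11a came closest to a call with 0.32 (adjusted p = 0.0505). It was called in 4 of 8 alternatives, DESeq2, limma-voom, upper-quartile scaling and the replicate block (adjusted p = 0.0208 to 0.0499). The other peroxisomal genes had 0.14 for Eci2, 0.05 for Hsd17b4, 0.01 for Acaa1b, -0.05 for Ehhadh and -0.16 for Abcd2. Cyp4a10, Cyp4a14 and Aldh3a2 had 0.01, -0.20 and 0.11, Bdh1 -0.13 and Vnn1 -0.24. The 43 respiratory chain genes were again all positive, with a median of 0.13, and 20 were called.

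**Figure D3:**
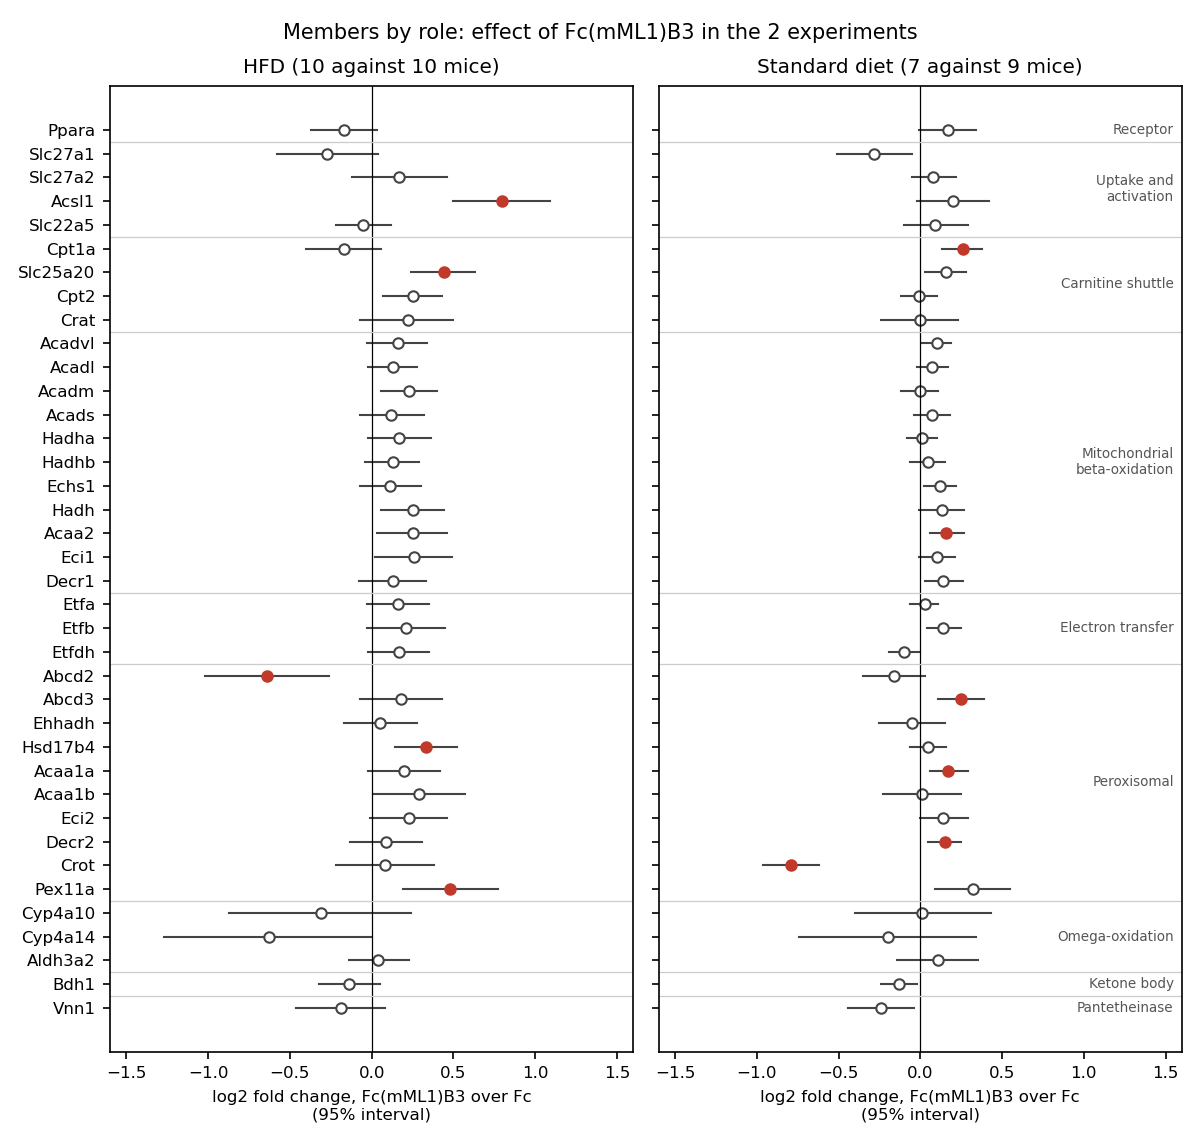
Log2 fold change of Fc(mML1)B3 over Fc (x axis) with its 95% interval for each of the 38 genes (y axis, grouped by role), under the HFD (left) and the standard diet (right), with called genes filled in red. Values ran from -0.64 for Abcd2 to 0.80 for Acsl1 under the HFD and from -0.79 for Crot to 0.32 for Pex11a under the standard diet, and most intervals included or came close to 0.

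The clock score also differed under the standard diet, from -3.90 to -2.23 in Fc and from -4.55 to -3.56 in Fc(mML1)B3 livers, and 12 of 15 clock genes were called. With it as a covariate, 1 of the 38 genes was called higher (Abcd3) and 1 lower (Crot), beside 7.97% of all genes. The genes that lost their call then had 0.25 (Cpt1a, adjusted p = 0.0519), 0.19 (Decr2), 0.16 (Acaa1a) and 0.12 (Acaa2). Of 6 stellate cell markers, Des and Pdgfrb were called lower, with sums of 173 to 258 CPM in Fc and 169 to 199 CPM in Fc(mML1)B3 livers. Of 4 cholangiocyte markers, Sox9 was called lower, with sums of 30.5 to 56.0 and 18.7 to 43.6 CPM. Of 8 hepatocyte markers, Cps1 was called higher (0.19), with a median of 0.03 over the 8 and sums of 109131 to 139326 CPM and 116518 to 132042 CPM. Their part in these results was not tested.

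A difference between the experiments in the response to Fc(mML1)B3 was tested as an interaction over all 36 livers. It was called for 3 of the 38 genes, 1 higher and 2 lower, beside 9.06% of 14105 genes tested, 4.66% higher and 4.40% lower. The effect on Crot was lower under the standard diet than under the HFD by -0.86 on the log2 scale (SE 0.19, adjusted p = 0.00170). Its HFD value of 0.08 pooled -0.20 for Fc(mML1)B3 mice 1 to 4 and 0.25 for mice 5 to 10, neither called. For Acsl1, the difference was -0.58 (SE 0.19, adjusted p = 0.0470), with a rise of 0.80 under the HFD and a value of 0.20 under the standard diet. For Cpt1a, it was 0.44 (SE 0.14, adjusted p = 0.0330), with a negative value under the HFD and a rise under the standard diet. The call for Acsl1 was lost under 4 of 6 alternatives, at -0.57 with limma-voom, -0.59 with the open filter on low counts, -0.54 with a replicate block and -0.20 with the clock score as a covariate. The call for Cpt1a was lost under 3 of 6, at 0.43 with the open filter, 0.44 with the block and 0.20 with the clock score. The call for Crot was lost with the clock score as a covariate (-0.18, adjusted p = 0.958), in a fit that called 0 of 14105 genes and left 998 of them at an unadjusted p below 0.05. Ppara had a difference of 0.36 (95% interval 0.09 to 0.63, adjusted p = 0.0890) and Abcd2 one of 0.49 (95% interval 0.03 to 0.96, adjusted p = 0.202), so a difference between the experiments was not shown for either.

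Between the experiments, many of the 38 genes differed, as did many genes overall. In Fc livers, 6 were higher and 12 lower under the standard diet than under the HFD, while 47.9% of all 14105 genes were called, 23.3% higher and 24.6% lower. Crot had the largest rise among them, from 299 to 565 CPM with a median of 400 under the HFD to 668 to 827 CPM under the standard diet, a log2 fold change of 0.90 (SE 0.13, adjusted p = 3.12e-07). These groups did not overlap, as for 9.61% of all genes. Group means of Crot were thus 400 to 436 CPM in 3 groups and 753 ± 53.9 CPM (SD, n = 9) in the Fc livers of the standard diet. The Fc(mML1)B3 livers of the HFD held 2 library series, with means of 345 CPM (n = 4) and 474 CPM (n = 6). The 2 Fc(mML1)B3 groups differed by 0.05 on the log2 scale (95% interval -0.22 to 0.32).

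Also higher in Fc livers under the standard diet were Ehhadh, at 345 ± 60.9 CPM (SD, n = 9) against 240 ± 42.5 CPM (SD, n = 10), with a log2 fold change of 0.51 (adjusted p = 1.62e-04), and Acsl1, with 0.31 (adjusted p = 0.0488). The call for Acsl1 was kept in 2 of 6 alternatives and lost in the other 4, with values of 0.20 to 0.32 and adjusted p-values of up to 0.319 over the 6. Hadha and Hadhb rose together by 0.25 and 0.21, and Etfdh by 0.24. With the clock score as a covariate these 3 were not called (adjusted p = 0.0857 to 0.0974), nor were Cpt1a and Etfb, and Hadhb was also not called with upper-quartile scaling. All 3 ω-oxidation genes were lower, although the call for Cyp4a14 was lost with limma-voom (adjusted p = 0.0599). Cyp4a14 and Cyp4a10 changed by -0.85 (SE 0.30) and -0.84 (SE 0.26), from 206 to 115 CPM and from 288 to 162 CPM on average, and Aldh3a2 by -0.32. Slc27a1 had -0.50 (SE 0.14), and the other called lower genes, Acaa1a, Hadh, Crat, Acadl, Decr2, Cpt1a, Etfb and Etfa, lay between -0.40 and -0.23.

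In Fc(mML1)B3 livers, 3 genes were higher and 13 lower under the standard diet, beside 38.5% of all genes, 20.7% higher and 17.9% lower. Ppara was higher, with 153 to 276 CPM under the HFD and 288 to 385 CPM under the standard diet. Every liver of the standard diet was above every liver of the HFD, as for 9.77% of all genes (log2 fold change 0.47, SE 0.10, adjusted p = 1.71e-04), and in Fc livers the corresponding value was 0.12 (adjusted p = 0.294). The clock score differed between these Fc(mML1)B3 groups without overlap, and with it as a covariate the call for Ppara was lost (0.32, adjusted p = 0.256). Abcd2 had 0.60 (SE 0.17) and Ehhadh 0.43 (SE 0.11). Among the 13 called lower, the largest negative values were those of Crat (-0.58, SE 0.14), Slc27a1 (-0.49, SE 0.15) and Hadh (-0.48, SE 0.09). Acadl, Acaa1a, Slc25a20, Pex11a, Eci1, Etfa, Acadm, Etfb, Decr2 and Cpt2 were also called lower, from -0.41 to -0.23. With the clock score as a covariate, 11 of these 13 lost their call, Acadl and Acaa1a kept it and Eci2 (-0.54, adjusted p = 0.0367) gained one, beside 16.4% of all genes called. Crat then had -0.03, Cpt2 -0.05 and Pex11a -0.11, while Hadh had -0.43 (adjusted p = 0.0620) and Slc27a1 -0.51 (adjusted p = 0.227). The 2 diet comparisons use the 4 groups of the protein comparisons, so their values are not independent of those.

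Other genes moved between the experiments as well, with 47.9% of all genes called in Fc livers and 38.5% in Fc(mML1)B3 livers. Of the 43 respiratory chain genes, 40 had a negative value in Fc livers, with 20 called lower and 1 higher, and 39 in Fc(mML1)B3 livers, with 22 called lower. In Fc livers, 5 of 5 lymphocyte markers and 4 of 6 stellate cell markers were called lower under the standard diet and 3 of 8 hepatocyte markers higher. Also called lower were 2 of 6 macrophage, 1 of 3 neutrophil and 1 of 4 cholangiocyte markers, while 1 of 4 endothelial markers was called higher. The lymphocyte markers summed to 6.92 to 17.2 CPM under the HFD and 4.83 to 8.58 CPM under the standard diet, and the stellate cell markers to 207 to 397 and 173 to 258 CPM. In Fc(mML1)B3 livers, 3 of 6 stellate cell, 2 of 6 macrophage, 2 of 4 cholangiocyte and 1 of 3 neutrophil markers were called lower. There, 2 of 8 hepatocyte markers and 1 of 4 endothelial markers were called higher. Of 5 lymphocyte markers, 1 was called higher and 1 lower. Their part in the values of the 38 genes was not tested.

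**Figure D4:**
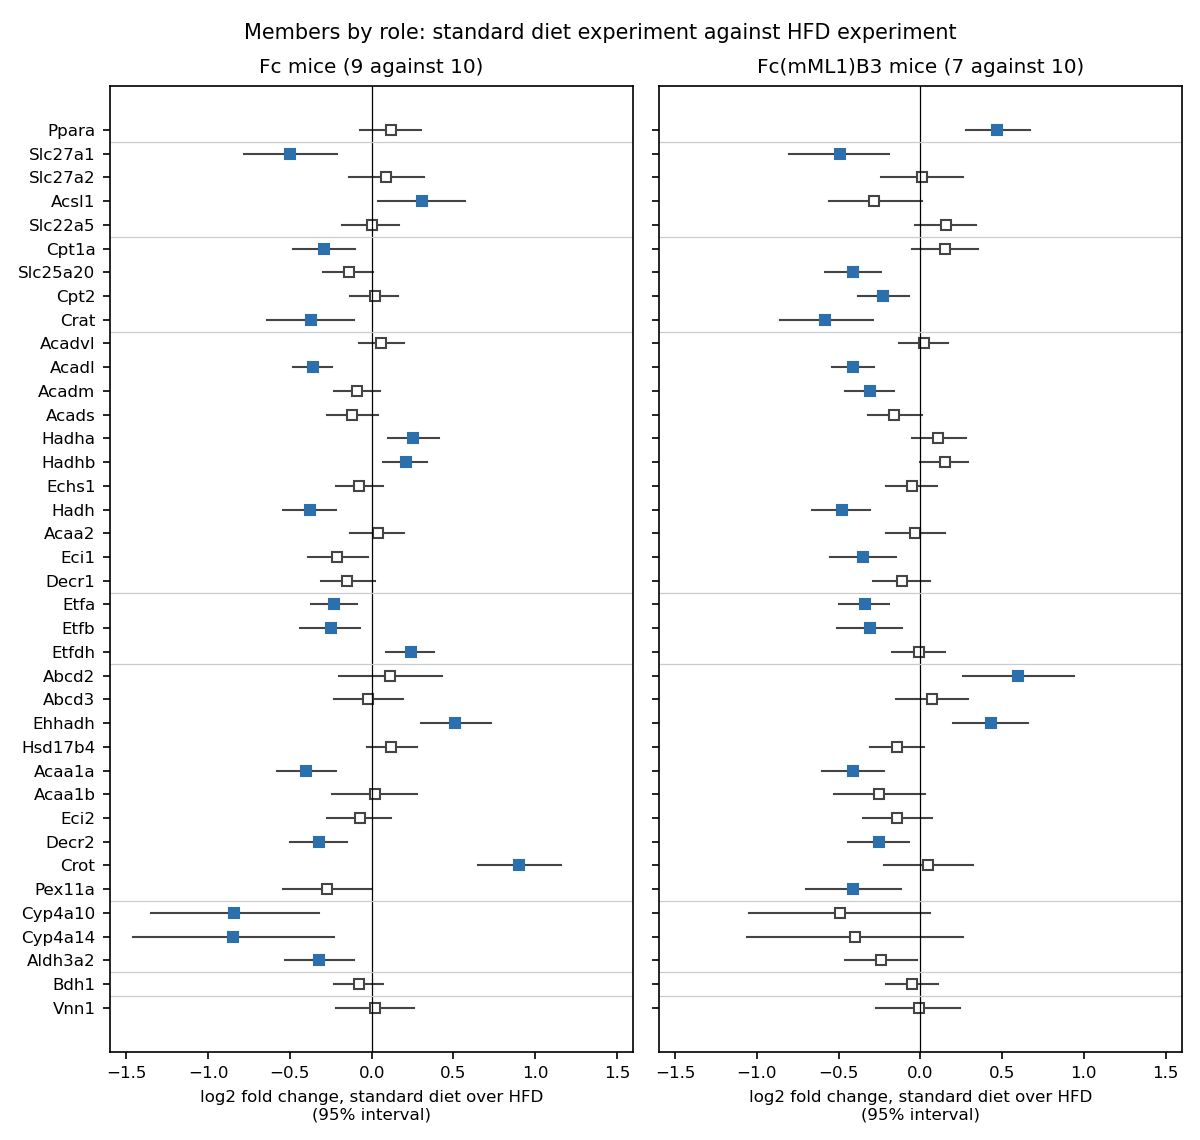
Log2 fold change of the standard diet over the HFD experiment (x axis) with its 95% interval for each of the 38 genes (y axis, grouped by role), in Fc mice (left) and Fc(mML1)B3 mice (right), with called genes filled in blue. In Fc mice, values ran from -0.85 for Cyp4a14 to 0.90 for Crot, which had 0.05 in Fc(mML1)B3 mice. In Fc(mML1)B3 mice, they ran from -0.58 for Crat to 0.60 for Abcd2, with Ppara at 0.47. Ehhadh was higher and Hadh, Acadl and Acaa1a lower in both.

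Further genes of the pathway were taken from 3 lists. Of 17 partners and coregulators of PPARα, 2 were called higher and 2 lower under the HFD (all genes 14.8%). Ppard, the related receptor PPARδ, rose from 8.99 to 16.6 CPM (0.89 on the log2 scale) and Hnf4a by 0.37, while Ppargc1b, a coactivator, fell by 0.77 and Pparg by 0.31. Under the standard diet, beside 16.1% of all genes called, 1 rose (Esrra, an orphan receptor that drives mitochondrial genes, by 0.63) and 2 fell (Ncoa2 by 0.25 and Ncor1 by 0.15). The medians were 0.05 (HFD) and 0.00 (standard diet). The interaction was called for 5 of the 17 (all genes 9.06%), among them Ppard (-0.68, adjusted p = 0.0328) and Esrra (0.68, adjusted p = 3.15e-04).

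Of 35 other PPARα targets tested under the HFD, 8 were called higher and 4 lower (all genes 14.8%). Plin5, a lipid droplet protein that tethers droplets to mitochondria, rose from 28.4 to 69.4 CPM (log2 fold change 1.29, adjusted p = 4.11e-06) and Pdk4, a kinase that restrains pyruvate oxidation, from 9.10 to 19.3 CPM (1.08, adjusted p = 0.0137). Acot3, a peroxisomal acyl-CoA thioesterase, and Pnpla2, the adipose triglyceride lipase, fell by 1.26 and 0.62. Under the standard diet, 4 were higher and 1 lower (all genes 16.1%). Acot3 rose there by 2.28 and the related Acot4 by 0.87, while Plin2, which coats lipid droplets, fell by 0.46. The medians were 0.15 and 0.04. Acot3, which like Acot4 has close paralogs, changed in opposite directions, and its interaction was 3.55 (SE 0.40, adjusted p = 5.86e-08).

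Of 32 other fatty acid oxidation genes tested, 2 were higher and 0 lower under the HFD (all genes 14.8%), and 9 were higher and 1 lower under the standard diet (all genes 16.1%). Hacl1, which acts in peroxisomal α-oxidation, rose by 1.10 under the HFD, and Acox2, a peroxisomal oxidase of branched-chain acyl-CoA and bile acid precursors, by 0.63. Nudt7, a peroxisomal CoA hydrolase, rose by 0.45 and Bdh2 by 0.34 under the standard diet, where Acox2 fell by 0.46. The medians were 0.08 and 0.06. The interaction was called for 5 of the 32 (all genes 9.06%), among them Acox2 (-1.07, SE 0.12, adjusted p = 5.42e-08) and Hacl1 (-1.19, SE 0.19, adjusted p = 4.27e-05).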

How the data were processed

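Each library is a separate mouse. The deposited values are raw counts per gene. The authors trimmed reads with fastp, removed ribosomal RNA with Bowtie2 2.4.5, aligned to mm10 with STAR 2.7.10a and counted with featureCounts (Subread 2.0.3), with each end of a pair counted as a read, strand ignored and reads with several alignments left out. Of the 38 genes, 2 share exonic bases with a neighbour on the other strand, Hadha with Gareml (77 bases) and Crat with Dolpp1 (54 bases).

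Groups came from the sample titles. Genes were kept by filterByExpr, scaled by TMM and tested with edgeR 4.0.16 (quasi-likelihood F-test) in R 4.3.3, each diet by itself and, for the interaction and the diets, all 36 libraries in 1 fit. Genes were called at an adjusted p below 0.05. SE was the absolute log2 fold change divided by the root of F, and 95% intervals used the t distribution. The p-values measure the spread between libraries labelled as separate mice. TPM used the gene lengths of the files. No 2 libraries of a group were duplicates (chi-square per degree of freedom at least 6.056 over 147 pairs). The fits were tested on simulated data.

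The 38 genes and all gene lists were chosen with earlier results of these data known. All 38 are given. Values by mouse are for Ppara and the 4 called genes with the largest change in each direction, other lists are represented by the 2 called with the largest change in each direction, and the diet comparisons by the 3. Ppard, Esrra, Acot3, Acox2 and Hacl1, the genes of other lists given with an interaction value, were taken from these.

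Alternatives were DESeq2 1.42.0, limma-voom (limma 3.58.1), upper-quartile scaling, an open filter (at least 1 read in 1 library), all 36 libraries, a replicate block, the study's limits (adjusted p below 0.1 and fold above 2 for the HFD, 0.05 and 1.5, as in a figure legend of the study, for the other diet), a clock covariate, single library series and each library left out. Library series was read from the sample numbers in the library names.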

Additional observations from a re-analysis of the deposited data

Results flagged for a closer look

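By a test of the interaction, the response to Fc(mML1)B3 differed between the experiments for Cpt1a (0.44 on the log2 scale, standard diet minus HFD), Acsl1 (-0.58) and Crot (-0.86), beside 9.06% of all genes. The call for Acsl1 was lost in 4 of 6 alternatives and that for Cpt1a in 3. With the clock covariate, 0 of the 3 were called and the values were 0.20, -0.20 and -0.18.

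Single livers lay far from the rest of their group in 11 of 152 groups of values by Dixon's criterion, where chance gives about 1 in 20. Fc(mML1)B3 mouse 5 under the HFD was the lowest of its group and apart for 5 genes, Hsd17b4 at 368 CPM with the next liver at 499, Acaa1b at 804 with the next at 1143, Cpt2 at 95.5 with the next at 128, Etfdh at 152 with the next at 216 and Abcd2 at 10.3 with the next at 22.6. Under the HFD, Fc mouse 7 was low for Acsl1 (347 CPM, next 570) and Fc mouse 6 for Crat (25.3 CPM, next 43.4). Under the standard diet, Ppara was high in Fc mouse 4 (375 CPM, next 298) and in Fc(mML1)B3 mouse 7 (385 CPM, next 322), Pex11a was high in Fc mouse 4 (32.04 CPM, next 25.6), and Etfa was low in Fc(mML1)B3 mouse 3 (311 CPM, next 334).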

How the results depend on the processing

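Under the HFD, the 4 higher and 1 lower calls (14.8% of all genes called) became 7 and 1 with DESeq2 (16.3%), 9 and 1 with all 36 libraries (22.2%), 2 and 0 with either library series of Fc(mML1)B3 livers (5.10% and 12.6%), and 0 and 0 with the study's limits or the clock covariate. Under the standard diet, the 5 higher calls (16.1% of all genes called) became 8 with DESeq2 (18.6%), 1 with the clock covariate (7.97%) and 0 with all 36 libraries (5.57%), with 1 library series (6.86%) or with the study's limits (2.36%), while 1 lower call stayed in each. The interaction (1 higher, 2 lower, 9.06% of all genes called) became 1 and 1 with limma-voom (8.98%), 0 and 1 with the open filter (5.76%), and 0 and 0 with the clock covariate (0%). For the diets, lower calls rose from 12 to 19 in Fc mice and from 13 to 19 in Fc(mML1)B3 mice with upper-quartile scaling, beside 4 and 3 higher calls. With that scaling all genes split 2523 higher and 4795 lower in Fc mice (main 3288 and 3471), 2208 and 3799 in Fc(mML1)B3 mice (2914 and 2520) and 865 and 1075 under the HFD (1083 and 889). The clock covariate left 2 higher and 10 lower calls in Fc mice (35.2% of all genes called, main 47.9%) and 2 and 3 in Fc(mML1)B3 mice (16.4%, main 38.5%). Over these settings 0 genes reversed a call. The cause of these shifts was not tested.

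Leaving out each library gave 3 to 10 higher and 1 to 1 lower calls in the HFD experiment (3 without Fc(mML1)B3 mouse 6 and 10 without mouse 5, with 11.6% and 21.3% of all genes called) and 2 to 7 and 1 to 2 in the other (7 without Fc mouse 4 or 8), with 12.7% to 16.5% of all genes called.

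No pairing of mice by the replicate numbers of the titles was seen, although low correlations cannot exclude one. Same-numbered mice had correlations of -0.66 to 0.31 (2 of 10 pairs above 0.1, and 1 liver best with its own number) in the HFD experiment and of -0.17 to -0.02 in the other. With the number as a replicate block, 2 higher and 0 lower were called in the HFD experiment (9.73% of all genes called), 4 and 1 in the other (9.66%), and 0 and 1 for the interaction (7.07%). Hsd17b4, Pex11a and Abcd2 lost their calls in the HFD experiment (adjusted p = 0.0584 to 0.102).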
